A study of Mus musculus with 6 samples.

Results

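The genes that start a Wnt signal at the cell surface were followed in ventral dermis of mice with activated beta-catenin and of littermate controls. They were chosen by symbol: 19 Wnt ligands, 4 R-spondins, 10 frizzled receptors, 5 co-receptors (Lrp5, Lrp6, Ror1, Ror2 and Ryk) and the 2 genes Porcn and Wls that ready ligands for export. All 40 were found among the 23412 genes of the table. Of these, 29 had a mean of at least 1 FPKM (a level that divides read counts by gene length and library depth) over the 6 libraries and were tested, and 11 lay below that level.

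Wnt proteins are secreted signals that carry a lipid, added by the acyltransferase Porcn and needed for the carrier Wls to bring them to the cell surface. There a Wnt binds a frizzled together with Lrp5 or Lrp6, which stops the breakdown of beta-catenin, or a frizzled together with Ror1, Ror2 or Ryk, which works largely without beta-catenin. R-spondins bind Lgr receptors and spare frizzleds from removal by the ubiquitin ligases Rnf43 and Znrf3. In skin, Wnt signals from epidermis, hair follicle and dermis are needed for hair follicles to form and to enter a new growth cycle.

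The 3 mutant libraries were from HoxB6CreERT/+; R26-YFP/+; CatnbΔex3/+ mice, which make a stabilised beta-catenin once Cre removes an exon, and the 3 control libraries from HoxB6CreERT/+; R26-YFP/+ littermates. Both groups thus carried the tamoxifen-inducible Cre, driven from Hoxb6, and the yellow fluorescent reporter, and all had tamoxifen through their mother on embryonic day 16.5. The background was mixed CD1 and C57BL/6, and dermis freed of epidermis with trypsin was taken at 3 weeks of age. The whole dermis was sequenced, so cells that did not recombine are in every library, and the stabilised protein acts downstream of Wnt ligands and their receptors. The labels do not give the sex of the mice. Reads behind the values, recovered from their steps, came to between 11839144 and 13478910 in mutants and between 7799565 and 9675359 in controls. Mutant 1 had the highest median-of-ratios scaling factor (1.19, a measure of a library's overall level of FPKM), and control 2 had the lowest (0.878), followed by mutant 2 (0.916). By Xist and 4 Y-linked genes, controls 1 and 2 were female and control 3 and mutants 1 and 3 male. Mutant 2 summed to 47.6 FPKM over the Y-linked genes, against 56.3 to 63.4 FPKM in the male libraries. It also had 6.47 FPKM of Xist, against 55.5 and 66.2 FPKM in controls 1 and 2. Its sex is thus uncertain, and whether the library mixes both sexes cannot be settled from FPKM. It was coded with the Y-expressing libraries. A fit with library sex as a covariate therefore rests on control 3 alone as the male control. In the main comparison every mutant library had the Y-linked genes while controls 1 and 2 were female. Genotype and sex thus cannot be fully told apart there. Of the fibroblast markers, 10 of 10 passed the 1 FPKM floor, and Pdgfra, which marks dermal fibroblasts, stood at 21.8 to 31.9 FPKM in mutants and 11.5 to 17.6 FPKM in controls. Markers of other cells were present too: 10 keratinocyte markers summed to 861 to 981 FPKM in mutants and 713 to 911 FPKM in controls, and the hair sheath keratin Krt71 was at 896 to 1823 FPKM in mutants and 1567 to 1627 FPKM in controls.

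No ligand, R-spondin, receptor, co-receptor or export gene passed the threshold between mutant and control dermis. None of the 29 tested members was called different (0 of 29, limma on log2(FPKM + 1), Benjamini-Hochberg adjusted p under 0.05 over all 12560 tested genes). Over all tested genes 0.143% were called, 18 in number and all higher in mutants. At an unadjusted p under 0.05 there were 3 members, Rspo1, Wnt5b and Fzd2, which is 10.3% of those tested against 11.3% of all genes (10.5% higher and 0.748% lower in mutants, with all 3 members higher). A second test, limma-voom on recovered reads, also called 0 members, where 67 of all tested genes were called higher and 0 lower. It had 3 members at an unadjusted p under 0.05, and the share of all genes at that level was not taken for this test. The median log2 difference, mutant minus control, was 0.05 over the tested members and 0.09 over all tested genes. Rescaling moved the median of all tested genes to -0.0084 (median of ratios) or -0.029 (quantile normalization), so a log2 difference near 0.09 as deposited is near the middle of all genes. All 29 members had a 95% interval within a 2-fold change in either direction on the log2(FPKM + 1) scale, and 22 (75.9%) had one within a 1.5-fold change, against 92.2% and 68.1% of all tested genes. Adding 1 to each value narrows the intervals of low genes, so these bounds mean most for members of several FPKM.

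**Figure D1:**
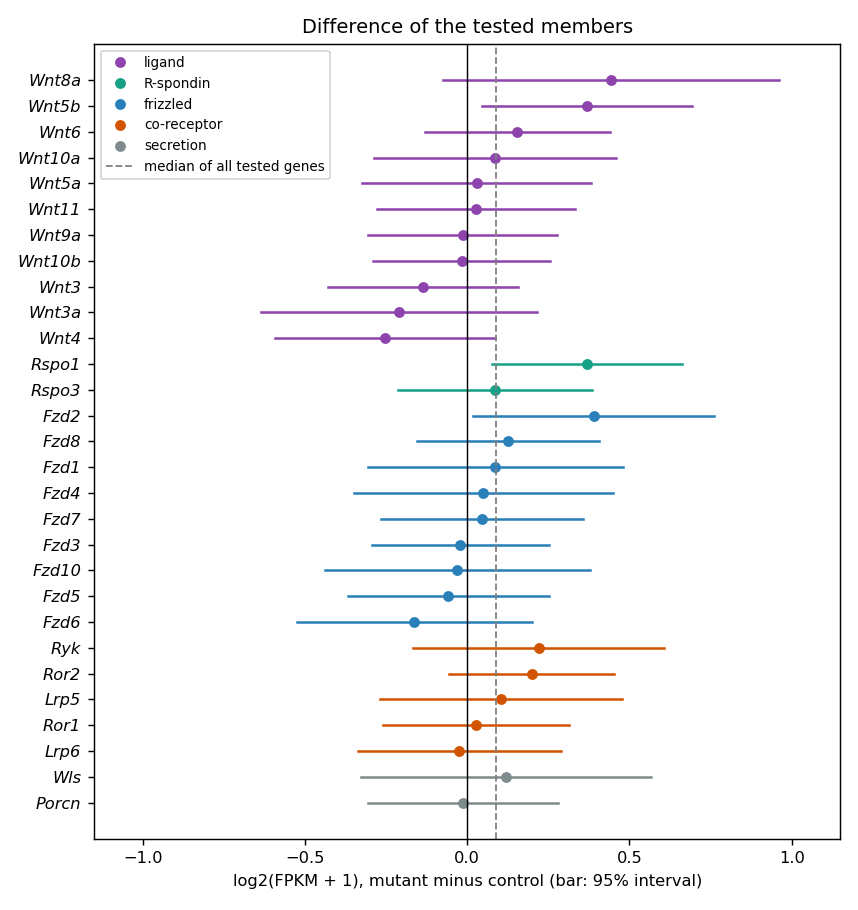
Difference between mutant and control dermis for the 29 tested members, as log2(FPKM + 1), mutant minus control, with 95% intervals from limma (3 libraries per group). Points lie between -0.25 for Wnt4 and 0.44 for Wnt8a, and the dashed line marks the median of all tested genes, 0.09.

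Ligand RNA was led by Wnt5a, the best known ligand of the beta-catenin-independent branch. Wnt5a (chromosome 14, 28504750 to 28527448, GRCm38) stood at 22.6, 17.2 and 19.3 FPKM in mutants 1 to 3, against 21, 19.7 and 17.0 FPKM in controls 1 to 3. The groups overlapped fully, and the log2 difference was 0.03 (95% interval -0.32 to 0.38, adjusted p = 0.976). Wnt5a alone made up 31.4% to 33.3% of the summed ligand FPKM in mutants and 29.6% to 36.3% in controls, and it lay above every other ligand in 6 of 6 libraries. The summed ligand level was 67.7, 52.0 and 61.5 FPKM in mutants 1 to 3, against 64.3, 54.2 and 57.4 FPKM in controls 1 to 3.

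Next came a group of 4 ligands of similar level. Wnt11, a ligand that guides cell movement in frog and fish embryos, was at 7.79, 5.90 and 7.28 FPKM in mutants and 7.44, 6.22 and 6.79 FPKM in controls. Wnt10a, which is needed for teeth and other skin appendages, was at 6.80, 5.11 and 6.81 FPKM in mutants and 6.50, 4.47 and 6.58 FPKM in controls. Wnt10b, an early signal of hair follicle placodes that promotes hair growth, was at 5.76, 4.63 and 5.57 FPKM in mutants and 5.57, 5.12 and 5.44 FPKM in controls. The log2 differences of these genes were 0.03, 0.09 and -0.02, each with groups that overlapped. Wnt4, the ligand known best from kidney tubule and ovary formation, had a log2 difference of -0.25, the lowest among the tested members. It was at 7.16, 5.07 and 6.55 FPKM in mutants and 8.76, 6.86 and 7.25 FPKM in controls, so that mutant 1 lay above control 2. Wnt4 and Wnt11 could not be ordered, since each was the higher in 3 of 6 libraries, and the ranges of Wnt11 and Wnt10a, and of Wnt10a and Wnt10b, overlapped as well.

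Wnt4 was lower in mutants once set relative to summed ligand FPKM or to each library's scaling factor, but short of the threshold. It made up 9.75% to 10.6% of summed ligand FPKM in mutants and 12.6% to 13.6% in controls, and these ranges did not overlap. The shares of Wnt2, Wnt5b and Wnt16 did not overlap between groups either, and these were higher in mutants. How often such shares separate among other genes was not taken. After median-of-ratios scaling the values were 6.02, 5.54 and 6.27 in mutants and 8.59, 7.82 and 7.25 in controls, with a log2 difference of -0.35 (adjusted p = 0.140). Over all alternatives tried, the log2 difference of Wnt4 ran from -0.36 to -0.13 and no alternative called it. The value nearest 0 was without mutant 2, and without control 1 it was -0.16. Wnt3, Wnt3a, Wnt10b and Lrp6 also had separate groups after this scaling, all lower in mutants, though not as deposited. These 5 are 17.2% of the tested members, where 10.7% of all tested genes lay lower in the same way. As deposited, no member had every mutant below every control, against 2.65% of all tested genes. The 14 hair matrix and sheath markers are given beside these values: 13 of 14 were below 0 in log2 difference and 2 had separate groups, lower in mutants, with sums of 7301, 3674 and 6281 FPKM in mutants and 6662, 7152 and 6932 FPKM in controls. None of these markers was at 0 in all libraries, and the share of all tested genes below 0 was not taken. Their part in the values of Wnt4 and the other ligands was not tested, and in whole dermis fewer cells of a type and less RNA per cell cannot be told apart.

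**Figure D2:**
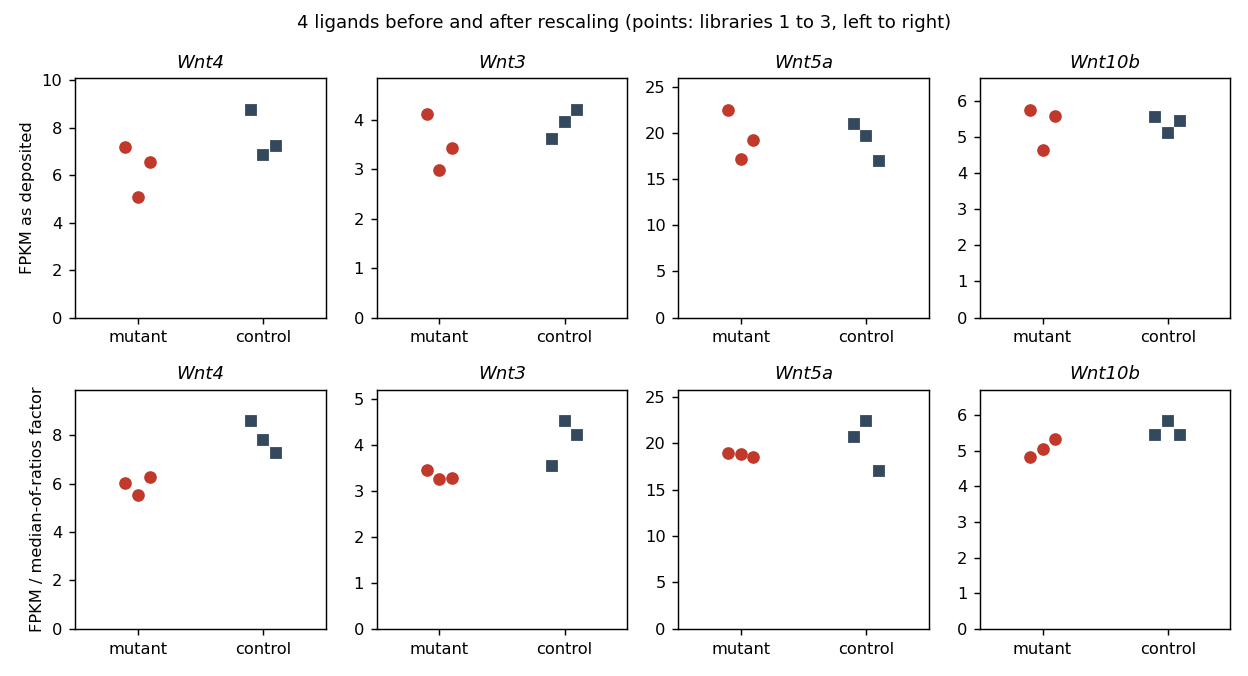
FPKM of 4 ligands per library, as deposited (top row) and after division by the median-of-ratios factor (bottom row), with mutants left and controls right in each panel. For Wnt4, Wnt3 and Wnt10b the groups overlap in the top row and separate in the bottom row, while Wnt5a overlaps in both.

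Lower in the order stood Wnt3, Wnt3a and Wnt6. Wnt3, of hair follicle and limb epithelium, was at 4.12, 2.98 and 3.43 FPKM in mutants and 3.62, 3.97 and 4.21 FPKM in controls. Wnt3a, its near relative and the ligand most used to activate beta-catenin in culture, was at 3.34, 1.57 and 2.53 FPKM in mutants and 3.16, 2.48 and 3.21 FPKM in controls. Mutant 2 was the lowest library for both, and it was also the lowest for the hair marker sum. The log2 differences were -0.14 (95% interval -0.43 to 0.16) for Wnt3 and -0.21 (-0.63 to 0.21) for Wnt3a. Without mutant 2 they were -0.050 for Wnt3 and -0.0069 for Wnt3a, and without mutant 1 they were -0.23 and -0.39. Wnt6, an epithelial ligand, was at 2.15, 1.93 and 1.70 FPKM in mutants and 1.87, 1.46 and 1.55 FPKM in controls, with a log2 difference of 0.15 (0.10 without mutant 1) and control 1 inside the range of the mutants.

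Near the test's floor of 1 FPKM lay Wnt5b, Wnt9a and Wnt8a, and Wnt2 just under it. Wnt9a, which takes part in joint formation, was at 1.45, 1.1 and 1.06 FPKM in mutants and 1.13, 1.18 and 1.35 FPKM in controls (log2 difference -0.01). Wnt8a, an early embryonic ligand, varied most of all tested members, at 1.18, 1.02 and 2.17 FPKM in mutants and 1.31, 0.332 and 0.793 FPKM in controls. It rested on 8 to 70 reads per library, and its log2 difference of 0.44 had an interval from -0.07 to 0.96. That difference was 0.24 without control 2 and 0.25 without mutant 3. Wnt5b, the close relative of Wnt5a, was at 1.42, 1.80 and 1.43 FPKM in mutants and 1.13, 0.689 and 1.13 FPKM in controls. Every mutant lay above every control, with a log2 difference of 0.37 (SE 0.14, 95% interval 0.05 to 0.69, adjusted p = 0.362). That difference was 0.26 without control 2 and 0.26 with library sex as a covariate, and Wnt5b rested on 29 to 102 reads per library. The share of Wnt5b in ligand FPKM was 2.10% to 3.46% in mutants and 1.27% to 1.98% in controls.

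Wnt2 and Wnt16 showed the widest gap between groups of the ligands with a mean of at least 0.1 FPKM, at low levels. Wnt2 (chromosome 6, 17988940 to 18030585), which with Wnt2b specifies the lung in the embryo, was at 1.64, 1.26 and 1.27 FPKM in mutants and 0.472, 0.477 and 0.791 FPKM in controls. Every mutant was above every control, and the ratio of the group means was 2.40 (means 1.39 ± 0.218 in mutants and 0.58 ± 0.183 in controls, SD, n = 3 each). It rested on 57 to 68 reads per mutant library and 16 to 25 reads per control library. Its mean over all libraries, 0.985 FPKM, kept it out of the test. When the floor was lowered to 0.1 FPKM, Wnt2 had a log2 difference of 0.60 (SE 0.12, adjusted p = 0.106), where 0.0920% of the 16313 genes tested were called. Over added fits chosen after the values were seen (library sex, rescaling, each library left out) its log2 difference ran from 0.41 to 0.69 and its adjusted p from 0.0850 to 0.706, and no fit called it. The lowest value, 0.41, was with library sex as a covariate.

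Wnt16 (chromosome 6, 22288227 to 22298522), known for keeping cortical bone, was at 0.736, 0.647 and 0.705 FPKM in mutants and 0.458, 0.114 and 0.0402 FPKM in controls. The mutants were close together on 23 to 25 reads each, while the controls had 13, 3 and 1 reads. With the 0.1 FPKM floor its log2 difference was 0.51 (SE 0.13, adjusted p = 0.152). In the same added fits it ran from 0.41 to 0.71, with adjusted p from 0.0658 to 0.483. At such depth the size of the ratio between groups is poorly set.

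The remaining ligands were scarce. Wnt2b was at 0.715 to 0.839 FPKM in mutants and 0.487 to 0.756 FPKM in controls. Wnt7b, an epithelial ligand of hair follicle stem cells, was at 0.764 to 0.852 FPKM in mutants and 0.528 to 0.945 FPKM in controls. Both overlapped between groups. Wnt1, Wnt7a, Wnt8b and Wnt9b had means under 0.1 FPKM, with at most 8 reads in any library. Wnt1 was read in mutants 1 and 3 only, with 1 read in each.

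**Figure D3:**
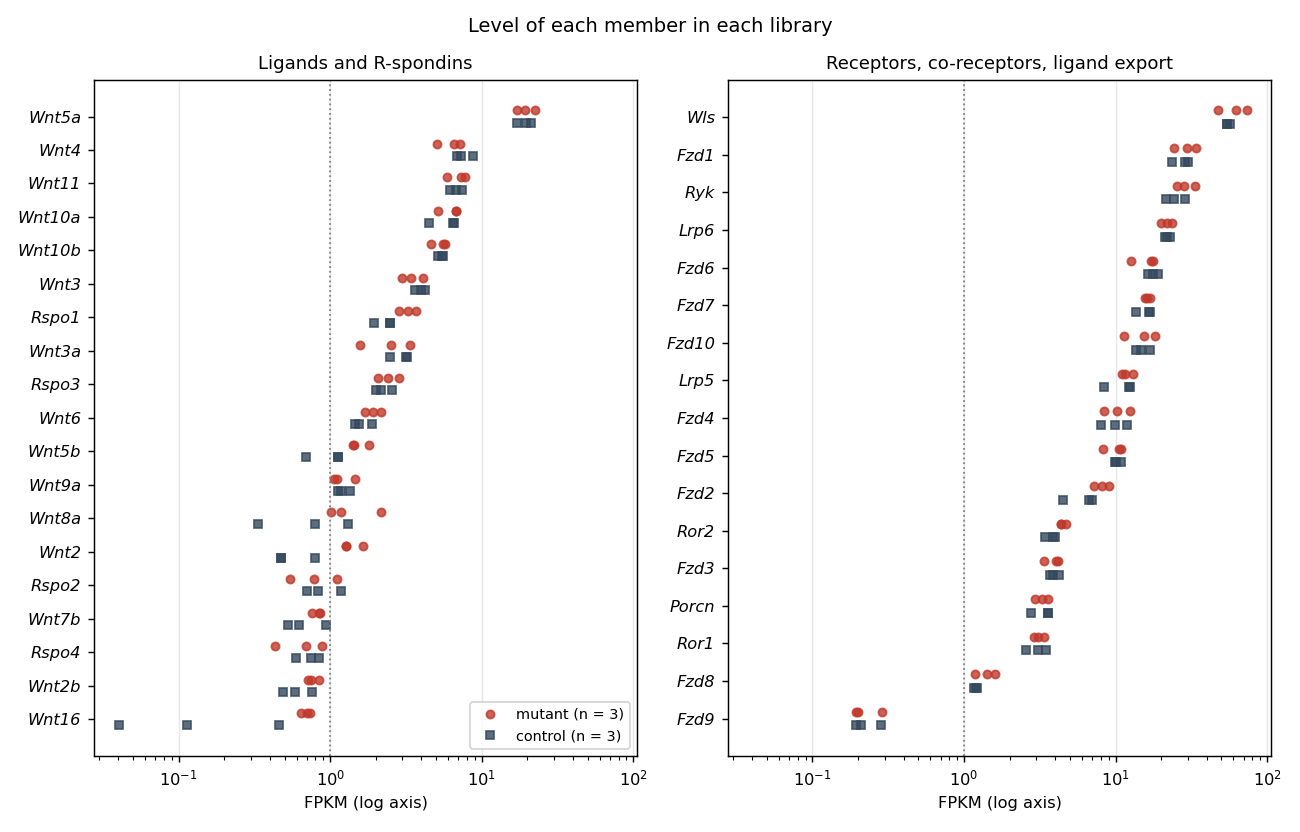
FPKM of each member with a mean of at least 0.1 FPKM in each library, on a log axis, with mutants drawn as circles above the controls drawn as squares and genes ordered by mean. The dotted line marks the 1 FPKM floor of the test; Wnt5a heads the ligands and Wls, the ligand carrier, heads the other panel.

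**Figure D4:**
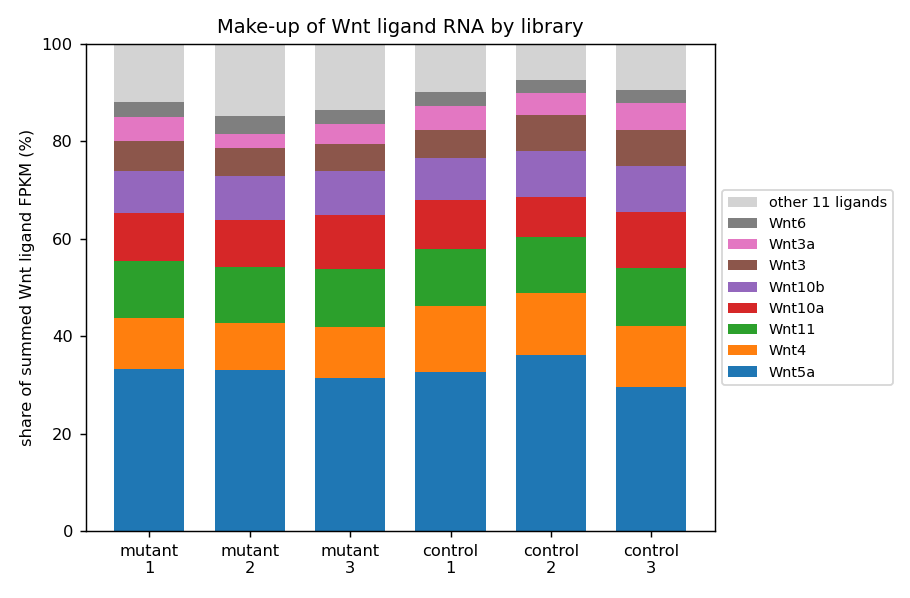
Share of the summed FPKM of 19 Wnt ligands taken by each ligand, per library. Wnt5a takes between 29.6% and 36.3% in every library, and the share of Wnt4 is at 9.75% to 10.6% in mutants and 12.6% to 13.6% in controls.

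Among R-spondins, Rspo1 had separate groups. Rspo1 (chromosome 4, 124986430 to 125009099), whose loss in humans thickens the skin of palms and soles, was at 3.71, 3.24 and 2.84 FPKM in mutants 1 to 3, against 2.47, 1.96 and 2.48 FPKM in controls 1 to 3. All mutants lay above all controls, on 111 to 133 reads per mutant library and 57 to 77 per control library. The log2 difference was 0.37 (SE 0.13, 95% interval 0.08 to 0.66), with the smallest p of the tested members (adjusted p = 0.300). It was 0.28 after median-of-ratios scaling and 0.29 with library sex as a covariate. Rspo3, which acts in vessel and placenta formation, was at 2.86, 2.07 and 2.41 FPKM in mutants and 2.55, 2.0 and 2.18 FPKM in controls, with a log2 difference of 0.09. Rspo1 and Rspo3 could not be ordered throughout, Rspo1 being the higher in 4 of 6 libraries. Rspo2, a dermal papilla signal whose variant gives dogs their coat furnishings, was at 0.547 to 1.12 FPKM in mutants and 0.698 to 1.18 FPKM in controls. Rspo4, needed for nails in humans, was at 0.435 to 0.884 FPKM in mutants and 0.595 to 0.847 FPKM in controls. For both, the groups overlapped.

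The bases before the start sites of members with separate groups are shown where RefSeq (build GRCm38.p6) held a window clear of annotated exons (for Wnt5b, which has 3 such windows, the one with a match), since binding sites of TCF and LEF factors, which take beta-catenin to DNA, can lie there. Capitals mark a match to a TCF/LEF core, searched on both strands as CTTTG followed by AA, AT, TA or TT. Each line gives 250 bases up to the start site, on the gene's own strand: chr4:124986180-124986429 (plus) for Rspo1, chr6:22287977-22288226 (plus) for Wnt16, chr13:53286125-53286374 (minus) for Ror2, and chr6:119449387-119449636 (minus) for 1 of 3 start sites of Wnt5b.
Rspo1: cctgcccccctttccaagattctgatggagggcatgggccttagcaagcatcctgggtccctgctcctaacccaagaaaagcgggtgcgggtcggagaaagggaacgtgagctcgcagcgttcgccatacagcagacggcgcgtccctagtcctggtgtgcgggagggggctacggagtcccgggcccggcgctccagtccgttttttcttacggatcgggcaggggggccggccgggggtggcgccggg
Wnt16: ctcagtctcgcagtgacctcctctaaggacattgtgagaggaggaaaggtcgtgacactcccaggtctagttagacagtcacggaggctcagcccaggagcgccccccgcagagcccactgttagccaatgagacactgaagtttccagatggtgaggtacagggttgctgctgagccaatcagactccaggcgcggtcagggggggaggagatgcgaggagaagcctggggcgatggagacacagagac
Ror2: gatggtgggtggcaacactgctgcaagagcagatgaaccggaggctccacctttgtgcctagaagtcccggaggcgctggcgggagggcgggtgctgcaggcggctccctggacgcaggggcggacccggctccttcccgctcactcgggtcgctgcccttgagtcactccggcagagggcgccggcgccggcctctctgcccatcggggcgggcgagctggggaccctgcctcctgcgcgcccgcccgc
Wnt5b: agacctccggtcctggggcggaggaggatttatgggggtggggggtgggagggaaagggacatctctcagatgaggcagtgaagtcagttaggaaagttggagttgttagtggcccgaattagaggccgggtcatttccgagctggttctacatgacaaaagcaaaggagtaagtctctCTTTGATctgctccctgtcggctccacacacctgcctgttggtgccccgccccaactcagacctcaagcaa
Of the windows of these members, 1 of 3 for Wnt5b held a core, CTTTGAT, at 71 bases before the start site. The other two windows of Wnt5b and those of Rspo1, Wnt16, Wnt2 and Ror2 held none of these letters. RefSeq windows were matched for 27 of 40 members. A core lay in 4 of their 30 windows of 300 bases (13.3%), against 16.9% of all 32851 windows. A match is no shown binding site, and these windows leave out all more distant sequence.

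Frizzled RNA was more abundant per length than ligand RNA, and 9 of 10 frizzleds were tested. Their sum was 125, 92.7 and 113 FPKM in mutants 1 to 3, against 116, 96.6 and 110.0 FPKM in controls 1 to 3. Fzd1 led in 6 of 6 libraries, at 33.9, 24.4 and 29.7 FPKM in mutants and 30.1, 23.7 and 28.6 FPKM in controls. Fzd6, which orients hair follicles in the mouse, was at 17.6, 12.6 and 17.3 FPKM in mutants and 19.0, 17.7 and 16.4 FPKM in controls. Fzd7, of the same subfamily as Fzd1 and Fzd2, was at 16.9, 15.7 and 16.1 FPKM in mutants and 17.0, 13.7 and 16.6 FPKM in controls. The last 2 overlapped in level with each other and with Fzd10, at 18.2, 11.3 and 15.3 FPKM in mutants and 16.9, 13.6 and 14.7 FPKM in controls. Log2 differences were 0.09 for Fzd1, -0.16 for Fzd6, 0.05 for Fzd7 and -0.03 for Fzd10, all with overlapping groups. The value of Fzd6 was -0.018 without mutant 2.

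The vascular receptor Fzd4, which also binds Norrin, was at 12.4, 8.44 and 10.2 FPKM in mutants and 9.98, 8.01 and 11.8 FPKM in controls. Fzd5, needed in placenta and eye, was at 10.9, 8.32 and 10.5 FPKM in mutants and 10.8, 10.1 and 9.99 FPKM in controls. These receptors were equal in mean level and each was the higher in 3 of 6 libraries. Fzd3, a planar polarity receptor of growing axons, was at 4.15, 3.36 and 4.06 FPKM in mutants and 4.23, 3.85 and 3.68 FPKM in controls. Fzd8 was at 1.6, 1.18 and 1.42 FPKM in mutants and 1.21, 1.17 and 1.2 FPKM in controls, with mutant 2 inside the narrow range of the controls. Fzd9 was at 0.194 to 0.290 FPKM in mutants and 0.195 to 0.285 FPKM in controls, the lowest of the family.

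Fzd2 was the only frizzled with separate groups in FPKM. Fzd2 (chromosome 11, 102604396 to 102608058), a receptor for Wnt5a among others, was at 9.10, 7.19 and 8.19 FPKM in mutants and 6.96, 4.52 and 6.69 FPKM in controls. Control 2 stood well below the other controls, and mutant 2 was only just above control 1. The log2 difference was 0.39 (SE 0.17, 95% interval 0.02 to 0.76, adjusted p = 0.414). It was 0.22 without control 2 and 0.25 with library sex as a covariate. Fzd2 made up 7.24% to 7.76% of frizzled FPKM in mutants and 4.68% to 6.08% in controls. By share, Fzd1 and Fzd8 also had separate groups. Fzd1 made up 26.3% to 27.1% in mutants and 24.5% to 26.0% in controls, and Fzd8 1.26% to 1.28% and 1.04% to 1.21%.

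The co-receptors Lrp5 and Lrp6, shared by all ligands of the beta-catenin branch, had overlapping groups as deposited. Lrp6 was at 23.5, 19.9 and 21.8 FPKM in mutants and 22.9, 21.4 and 21.9 FPKM in controls, and of all tested members it varied least, its highest library being 1.18 times its lowest. Lrp5, which also sets bone mass, was at 12.9, 11 and 11.5 FPKM in mutants and 12.2, 8.42 and 12.5 FPKM in controls. Log2 differences were -0.02 (95% interval -0.34 to 0.29) for Lrp6 and 0.10 (-0.27 to 0.48) for Lrp5. The highest library of Lrp5 was 1.54 times its lowest, and its difference was -0.064 without control 2.

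The receptors of the Wnt5a branch came next. Ryk, a Wnt receptor with an inactive kinase domain, was at 33.4, 25.4 and 28.3 FPKM in mutants and 28.7, 21.4 and 24.2 FPKM in controls, and it lay above Lrp6 in 6 of 6 libraries. Its log2 difference of 0.22 (95% interval -0.17 to 0.61) had overlapping groups and was 0.12 without mutant 1 and 0.13 without control 2. Ror2 (chromosome 13, 53109312 to 53286124), a receptor for Wnt5a, was at 4.70, 4.34 and 4.36 FPKM in mutants and 4.01, 3.45 and 3.84 FPKM in controls, with every mutant above every control. The log2 difference of Ror2 was 0.20 (SE 0.11, adjusted p = 0.587), and 0.11 after median-of-ratios scaling. Ror1, its relative, was at 3.39, 3.07 and 2.88 FPKM in mutants and 3.47, 2.58 and 3.10 FPKM in controls, with a log2 difference of 0.03.

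Of the genes for ligand export, Wls was the most abundant member of all. It was at 73.2, 47.3 and 62.3 FPKM in mutants and 57.2, 54.3 and 54.0 FPKM in controls, so mutants lay on both sides of the controls (log2 difference 0.12, 95% interval -0.33 to 0.57). Porcn was at 3.29, 2.94 and 3.57 FPKM in mutants and 3.59, 2.76 and 3.60 FPKM in controls (log2 difference -0.01).

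**Figure D5:**
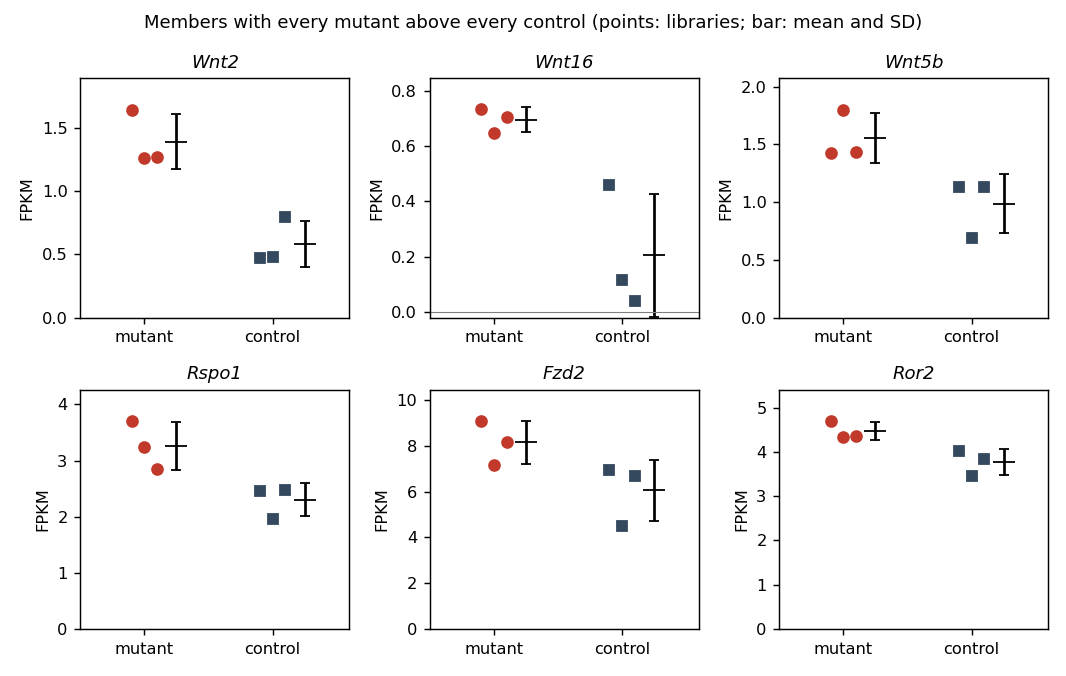
FPKM per library of the 6 members with every mutant above every control, with the mean and SD of each group (n = 3). Wnt2 and Wnt16 lie under the 1 FPKM floor of the test by their mean, and for Wnt2 the mutants span 1.26 to 1.64 FPKM and the controls 0.472 to 0.791 FPKM.

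With Wnt5b, Rspo1, Fzd2 and Ror2, 4 of 29 tested members (13.8%) had every mutant above every control, next to 13.0% of all tested genes, so the share of members was near the background. The same 4 remained separate after median-of-ratios scaling, where the background was 12.6%. All 10 fibroblast markers were above 0 in log2 difference and 7 had separate groups, with sums of 6563 to 8950.1 FPKM in mutants and 1849.6 to 7796 FPKM in controls. All 8 tested macrophage markers were above 0 and 7 had separate groups, with sums of 145 to 263 FPKM in mutants and 56.1 to 107 FPKM in controls. Endothelial markers were above 0 in 8 of 8 with 3 separate (sums of 47.0 to 58.3 FPKM in mutants and 36.2 to 44.8 FPKM in controls). Smooth muscle and pericyte markers were above 0 in 7 of 7 with 0 separate (107 to 156 FPKM in mutants and 72.9 to 127 FPKM in controls), and adipocyte markers in 5 of 6 with 2 separate (261 to 502 FPKM in mutants and 329.5 to 354 FPKM in controls). Of the other lists, 6 of 7 skeletal muscle markers, 5 of 6 Schwann cell markers, 7 of 10 keratinocyte markers and 4 of 7 dermal papilla markers were above 0. None of these markers was at 0 in all libraries or passed the threshold. The share of all tested genes above 0, to set beside these counts, was not taken, and their median as deposited was 0.09. Their part in the values of Wnt2, Wnt16, Wnt5b, Rspo1, Fzd2 and Ror2 was not tested.

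Of the other genes of the pathway, 58 of 60 listed genes were in the table and 51 were tested, and none was called (0 of 51). The groups were separate in 9 of them with mutants higher (17.6%, against 13.0% of all tested genes) and in 5 with mutants lower (9.80%, against 2.65%). After median-of-ratios scaling they were separate in 9 (17.6%, against 12.6%) and 11 (21.6%, against 10.7%). Ctnnb1, the gene for beta-catenin, was at 193, 136 and 168 FPKM in mutants and 201, 163 and 183 FPKM in controls, a value for the whole gene that cannot show loss of 1 exon in some cells. Axin2, a feedback target of beta-catenin, was at 9.14, 8.75 and 8.90 FPKM in mutants and 7.71, 6.31 and 7.72 FPKM in controls (log2 difference 0.27, adjusted p = 0.461). Lef1, a target and partner of beta-catenin, was lower in every mutant, at 14.6, 12.1 and 15.5 FPKM against 18.1, 17.1 and 17.4 FPKM in controls (log2 difference -0.31, adjusted p = 0.464). After median-of-ratios scaling the groups of Lef1 stayed separate and those of Axin2 overlapped. The groups of Ctnnb1 overlapped as deposited (log2 difference -0.15, adjusted p = 0.895) and were separate after this scaling, with every mutant lower.

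Genes for extracellular inhibitors had the highest median among the lists of other pathway genes, with a median log2 difference of 0.29. Of 13 tested genes 11 were above 0, but only 3 had separate groups, all higher in mutants. The share of all tested genes above 0 was not taken. All tested genes had a median of 0.09 as deposited and -0.0084 after median-of-ratios scaling. The list median was not taken after scaling. Dkk2, which blocks Lrp5 and Lrp6 or modulates them, was at 10.3, 6.42 and 7.36 FPKM in mutants and 4.55, 3.88 and 2.46 FPKM in controls (log2 difference 0.97, adjusted p = 0.105). Wif1, which binds Wnt ligands, was at 28.0, 23.6 and 22.9 FPKM in mutants and 21.4, 13.1 and 15.8 FPKM in controls (log2 difference 0.56, adjusted p = 0.283). All mutants were above all controls for both. The R-spondin receptor Lgr5 was at 11, 9.91 and 11.4 FPKM in mutants and 9.46, 7.96 and 9.13 FPKM in controls (log2 difference 0.25, adjusted p = 0.516).

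Of 12 tested surface genes, 3 had separate groups with mutants higher and 2 with mutants lower. The lower ones were Celsr1 and Celsr2 (log2 differences -0.26 and -0.28, adjusted p = 0.582 and 0.463). Among the higher ones were Reck and Gpr124, partners in sensing Wnt7 ligands on brain vessels. Reck was at 12.3, 8.48 and 8.93 FPKM in mutants and 5.49, 4.21 and 6.19 FPKM in controls, with a log2 difference of 0.79 (adjusted p = 0.114). Gpr124 was at 8.12, 7.40 and 6.99 FPKM in mutants and 4.82, 3.44 and 5.68 FPKM in controls, with a log2 difference of 0.61 (adjusted p = 0.175). In the listed targets Twist2, a dermal transcription factor that is also 1 of the fibroblast markers, had a log2 difference of 1.03 (adjusted p = 0.0845). Inside the cell, Bcl9, a co-activator of beta-catenin, was at 2.0, 1.96 and 2.08 FPKM in mutants and 2.19, 2.97 and 3.32 FPKM in controls (log2 difference -0.33, adjusted p = 0.398). Apc, a scaffold of the complex that degrades beta-catenin, had a log2 difference of -0.10 with all mutants lower. Without control 3 the genes Cthrc1, Reck and Twist2 passed the threshold, with adjusted p of 0.0121, 0.0499 and 0.0225. In that fit 189 genes were called higher and 4 lower over all tested genes. Its remaining controls, 1 and 2, are both female by Xist, so genotype and sex cannot be told apart there.

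Many members shared their extreme libraries. Control 2 was the lowest library for 16 of the 29 tested members and mutant 2 for 11, and mutant 1 was the highest for 19. These are the libraries with the lowest, next lowest and highest scaling factors. The highest library was 1.43 times the lowest at the median over tested members and 1.54 times at the median over all tested genes. Median log2 differences by class were 0.03 for ligands, 0.23 for R-spondins, 0.05 for frizzleds, 0.10 for co-receptors and 0.05 for the export genes, and after median-of-ratios scaling -0.080, 0.14, -0.064, -0.0025 and -0.048 in the same order, so that the sign turned for every class but the R-spondins. Library medians of the classes varied within groups with an SD of 0.13 to 0.17 on the same scale, so the class medians of ligands, frizzleds, co-receptors and export genes were within this spread, and the R-spondin median rests on Rspo1 and Rspo3.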

How the data were processed

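RNA of ventral dermis was sequenced in 3 mutant and 3 control samples as stranded total RNA libraries, per the labels' protocols. The authors deposited 1 FPKM value per gene and library. The aligner GSNAP, the counter HTSeq and the build mm10 come from the submitters' processing notes; versions, counting options and the lengths behind FPKM were not stated there. The labels do not say whether each library is 1 mouse, so p-values measure the spread between these libraries. Reads of any pair of libraries in a group differed far beyond sampling noise (lowest ratio of chi-square to its degrees of freedom 13.5).

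Values were compared as log2(FPKM + 1), a scale that understates change in low genes, with limma (version 3.58.1, R 4.3.3), trend in the prior variance, two-sided, adjusted over 12560 genes with mean FPKM of at least 1, threshold 0.05. An exact permutation test of 3 against 3 cannot go below p = 0.1. Reads were recovered as whole multiples of a step within each gene (20144 of the 20144 genes read in more than 1 library, relative tolerance 3e-09; of the rest, 1820 were at 0 throughout and 1448 were read in 1 library, so they could not be checked) and used for depth and limma-voom, with the depth that divides FPKM as library size. Gene positions are from GENCODE M21 (GRCm38). Opposite-strand genes overlap exons of Fzd5, Fzd6, Rspo3, Wnt5a, Wnt7b and Wnt11, and whether counting used strand is not given. Gene by gene, deviations of same-numbered libraries were not correlated (-0.08 to 0.04), a measure that ignores shifts shared by a whole library. The scaling factors of libraries 1 to 3 were 1.19, 0.916 and 1.05 in mutants and 1.02, 0.878 and 1.00 in controls. In both groups library 1 had the highest factor and library 2 the lowest, and whether the numbers pair libraries is not known. The members, gene lists and tests were chosen with earlier results of these data known. Every member with a mean of at least 1 FPKM is given per library. Of other pathway genes, Ctnnb1, Axin2 and Lef1 are named, with, per list, the 2 tested genes with the smallest p among those with separate groups. Cthrc1, Celsr1 and Celsr2 were named after their values were seen. Alternatives were another pseudocount, other floors, 2 rescalings, each library left out, the replicate block, library sex and limma-voom.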

Additional observations from a re-analysis of the deposited data

How the results depend on the processing

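No alternative called a member, higher or lower, so the count of 0 held under every setting that was run. The count over all genes, 18 higher and 0 lower, was less stable. Genes called higher numbered 9 with a pseudocount of 0.1, 4 with no filter, 28 after median-of-ratios scaling, 32 after quantile normalization, 10 with library sex as a covariate and 67 with limma-voom on recovered reads, and from 3 to 189 with 1 library left out (3 without mutant 2, 189 without control 3). Genes called lower numbered 1 with library sex as a covariate and from 0 to 4 with 1 library left out. With the replicate number as a block 67 genes were called higher and 1 lower, and whether the numbers pair libraries is not known. From 0 to 3 other pathway genes were called higher with 1 library left out. The fit without control 3 gave the 189 and the 3. It holds no male control, so genotype and sex cannot be told apart in it. The R-spondin median was 0.015 with no filter or with a floor of 0.1 FPKM, where Rspo2 and Rspo4 enter it, and 0.093 after quantile normalization. The co-receptor median ran from -0.047 to 0.19 with 1 library left out. Direction held in all alternatives for 11 tested members and turned for 18, whose values as reported were at most 0.13 in size. Log2 differences that turned were -0.082 for Wnt5a, -0.013 for Wnt10a, -0.075 for Wnt11, -0.026 for Fzd1, -0.056 for Fzd4, -0.064 for Fzd7, -0.0025 for Lrp5 and -0.059 for Ror1 after median-of-ratios scaling. After quantile normalization they were -0.077 for Wnt5a, -0.028 for Wnt10a, -0.082 for Wnt11, -0.051 for Rspo3, -0.023 for Fzd1, -0.050 for Fzd4, -0.052 for Fzd7, -0.0034 for Fzd8, -0.10 for Ror1 and -0.039 for Wls. With library sex as a covariate they were -0.076 for Wnt10a, 0.050 for Fzd3, -0.20 for Fzd4, -0.029 for Fzd7 and -0.076 for Lrp5. With 1 library left out they ran from -0.069 to 0.12 for Wnt5a, -0.092 to 0.032 for Wnt9a, -0.068 to 0.20 for Wnt10a, -0.068 to 0.065 for Wnt10b, -0.045 to 0.13 for Wnt11, -0.020 to 0.21 for Fzd1, -0.066 to 0.055 for Fzd3, -0.083 to 0.17 for Fzd4, -0.12 to 0.052 for Fzd5, -0.045 to 0.10 for Fzd7, -0.18 to 0.14 for Fzd10, -0.064 to 0.19 for Lrp5, -0.080 to 0.035 for Lrp6, -0.059 to 0.10 for Ror1, -0.11 to 0.042 for Porcn and -0.022 to 0.29 for Wls. The causes were not tested. Among members that kept their direction, leaving out 1 library moved the value by over 1.5 times for Wnt3, Wnt3a, Wnt4, Wnt6, Wnt8a, Fzd2, Fzd6 and Ryk (values beside each result). Members near 1 FPKM, such as Wnt8a and Wnt2, rest on few reads, and reads and intervals cover counting or library spread only.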
